A study of Homo sapiens with 12 samples.

Results

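The genes described here encode the proteases that cut the extracellular matrix and shed cell-surface proteins, together with their tissue inhibitors. They were taken by symbol, as every protein-coding gene named MMP, ADAM or ADAMTS with a number, TIMP1 to TIMP4, PLAU, PLAUR and PLAT. The rule found 68 genes of the 33694 listed: 22 MMP, 20 ADAM and 19 ADAMTS genes, 3 genes of plasminogen activation and 4 TIMP genes. Of these, 52 had at least 1 count in some library, 16 had none, and 24 passed the filter on low counts and were tested. A375-BIR, which the labels describe as a melanoma line resistant to BRAF inhibitors, was compared with A375, a melanoma line with an activating BRAF mutation. Each line was given dabrafenib, a BRAF kinase inhibitor, at 200 nM for 48 h, or the solvent DMSO at 0.1%, in RPMI with serum. The 4 groups were A375-BIR with dabrafenib, A375-BIR with DMSO and A375 with dabrafenib, each with 3 libraries labelled as biological replicates, and A375 with DMSO, of which 1 library could be used. How A375-BIR was derived, and whether it is 1 clone, is not given in the sources used here.

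A375 DMSO replicates 2 and 3 are labelled human, but the genes in their tables are mouse genes, and both were left out of every comparison. Each comparison with A375 DMSO therefore rests on 1 library with no spread of its own. The other 9 share a number stamp in their deposited names, which that library lacks. What the stamp marks is not given in the sources used here. In those comparisons the group and the stamp cannot be told apart. The 10 human libraries held 198690 to 1999840 gene counts, with a median of 570083. The highest was the A375 DMSO library, while the A375 dabrafenib libraries held 198690 to 493398. In that DMSO library 20.1% of reads lay outside the listed genes, against 28.6% to 30.9% in the other human libraries. Levels are CPM, counts scaled to a library of fixed size, with library sizes set by trimmed mean of M values (TMM), a normalization that centres most genes between libraries. A count of 0 over all libraries of a group allows a level of up to 1.49 CPM in A375-BIR with dabrafenib, 1.09 in A375-BIR with DMSO, 2.70 in A375 with dabrafenib and 1.88 in A375 with DMSO, for counting error only. The melanocyte lineage markers summed to 243 to 350 CPM in A375-BIR with dabrafenib, 203 to 224 in A375-BIR with DMSO, 3216 to 3737 in A375 with dabrafenib and 1616 in A375 with DMSO. Of these 8 markers TYR was at 0 in both A375-BIR groups, and MLANA had 1 count in all 10 libraries together, in A375 with dabrafenib. Mitochondrial genes took 4.63% to 7.21% of gene counts in the A375-BIR libraries and 10.7% to 15.1% in the A375 libraries. The part of lineage or mitochondrial share in any difference between the lines was not tested. Depth was evened out only by thinning each library to the smallest, as given further below. In bulk libraries, fewer cells that express a gene and less RNA per cell cannot be told apart.

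Matrix metalloproteinases (MMPs) are zinc enzymes that are secreted or held in the membrane, and cleave collagens and other matrix proteins. ADAM proteases are membrane-bound and release growth factors, cytokines and receptors from the cell surface, while the secreted ADAMTS enzymes cut proteoglycans and process procollagen. The plasminogen activators PLAU and PLAT turn plasminogen into plasmin, and PLAUR holds PLAU at the cell surface. The tissue inhibitors of metalloproteinases (TIMPs) block the active site of MMPs and of some ADAM and ADAMTS enzymes. In melanoma these genes are studied for their part in invasion, and several are known targets of the MAP kinase pathway through AP-1 and ETS family transcription factors.

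Upstream sequences are shown for 4 members whose levels differed most plainly between the groups and for which a window was at hand, chosen after their values were seen. They are the 250 bases before the RefSeq start site on GRCh38.p14, written 5′ to 3′ on the strand of the gene. PLAUR lies at chr19:43670170-43670419 on the minus strand, ADAMTS12 at chr5:33891991-33892240 on the minus strand, TIMP1 at chrX:47582186-47582435 and TIMP3 at chr22:32801455-32801704, both on the plus strand. GENCODE 29 places the outermost start of each of these genes upstream of the RefSeq one. Capitals mark matches on either strand to TGANTCA (the AP-1 motif), TGAGTAA (an AP-1-like motif) and AGGAAG (the PEA3 motif bound by ETS family factors), and no capitals means no match in the window.
PLAUR: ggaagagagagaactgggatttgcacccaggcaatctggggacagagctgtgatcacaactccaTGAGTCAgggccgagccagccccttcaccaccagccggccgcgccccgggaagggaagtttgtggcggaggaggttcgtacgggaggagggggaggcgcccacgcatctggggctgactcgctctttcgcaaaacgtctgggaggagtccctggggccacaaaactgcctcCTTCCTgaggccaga
ADAMTS12: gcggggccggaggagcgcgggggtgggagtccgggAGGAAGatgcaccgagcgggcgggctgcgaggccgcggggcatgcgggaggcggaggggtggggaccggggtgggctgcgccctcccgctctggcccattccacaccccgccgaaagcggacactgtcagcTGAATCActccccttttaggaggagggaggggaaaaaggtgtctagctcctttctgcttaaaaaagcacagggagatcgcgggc
TIMP1: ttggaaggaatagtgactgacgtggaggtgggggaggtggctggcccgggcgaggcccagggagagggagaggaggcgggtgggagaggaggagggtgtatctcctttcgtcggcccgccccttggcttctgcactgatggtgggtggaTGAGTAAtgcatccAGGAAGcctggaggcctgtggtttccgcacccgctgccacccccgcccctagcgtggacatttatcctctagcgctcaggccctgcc
TIMP3: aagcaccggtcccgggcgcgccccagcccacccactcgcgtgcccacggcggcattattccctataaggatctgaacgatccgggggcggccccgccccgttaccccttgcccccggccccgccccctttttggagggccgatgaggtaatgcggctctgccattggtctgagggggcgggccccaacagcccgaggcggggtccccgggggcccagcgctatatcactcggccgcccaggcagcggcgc
PLAUR held an AP-1 match at position -186 from the start site and a PEA3 match on the other strand at -15. ADAMTS12 held a PEA3 match at -215 and an AP-1 match at -84. In TIMP1 the AP-1-like match stood at -101, followed by a PEA3 match at -87. TIMP3 held none of the 3 motifs. Among the 40 members with a window, 5 held the AP-1 motif (12.5%, against 6.60% of 27305 windows of all genes), 1 the AP-1-like motif (2.50%, against 2.25%) and 10 the PEA3 motif (25.0%, against 28.7%). Of the 5 with the AP-1 motif, MMP7, MMP10 and MMP20 had no count in any library, and the others are ADAMTS12 and PLAUR. All these motif matches are matches of letters, and binding was not measured.

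Differences were tested in 1 fit over all 10236 genes that passed the filter (edgeR quasi-likelihood test), with p-values adjusted over all of them by Benjamini and Hochberg, and "called" means an adjusted p under 0.05. Every adjusted p below is from that test, and log2 values are given with their standard error (SE). In A375-BIR, dabrafenib against DMSO, 2 of the 24 tested members were called higher and 0 lower, where 2.46% of all tested genes were called (1.36% higher and 1.1% lower). In A375-BIR against A375, both with dabrafenib, 7 were called higher and 9 lower (42.7% of all genes, 22.6% higher and 20.2% lower). In A375, dabrafenib against DMSO, 5 were called higher and 8 lower (38.6% of all genes, 17.9% higher and 20.7% lower). In A375-BIR against A375, both with DMSO, 6 were called higher and 11 lower (51.8% of all genes, 25.1% higher and 26.7% lower). The difference between the responses, A375-BIR minus A375, was called positive for 5 members and negative for 3 (22.6% of all genes, 12.7% positive and 9.87% negative). The median log2 change of the 24 members was 0.04 in the A375-BIR response and 0.00 in the A375 response, and between the lines it was -0.29 in dabrafenib and -0.62 in DMSO. The median over all tested genes lay between 0.00 and 0.04 in these 4 comparisons. The members' median of 0.00 in the A375 response is the fitted value of ADAMTS9 and ADAMTS12. Neither had a count in A375, so that median is not a measured change. These comparisons share libraries and are not independent of each other. The filter asks for 17.5 CPM in 1 library, on raw totals. ADAMTS3 reached it in the A375 DMSO library alone, ADAM19 and ADAMTS15 in A375 with dabrafenib alone, and ADAMTS5 in A375-BIR with dabrafenib alone. MMP15 and MMP17 reached it in A375 libraries only, and ADAMTS6, ADAMTS9 and ADAMTS12 in A375-BIR libraries only. Passing the filter in this way favours members that differ between groups, so nothing is read from how many members were called. Across the 5 comparisons 21 members were called at least once, and ADAM12, ADAM19 and ADAMTS1 in none.

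**Figure D1:**
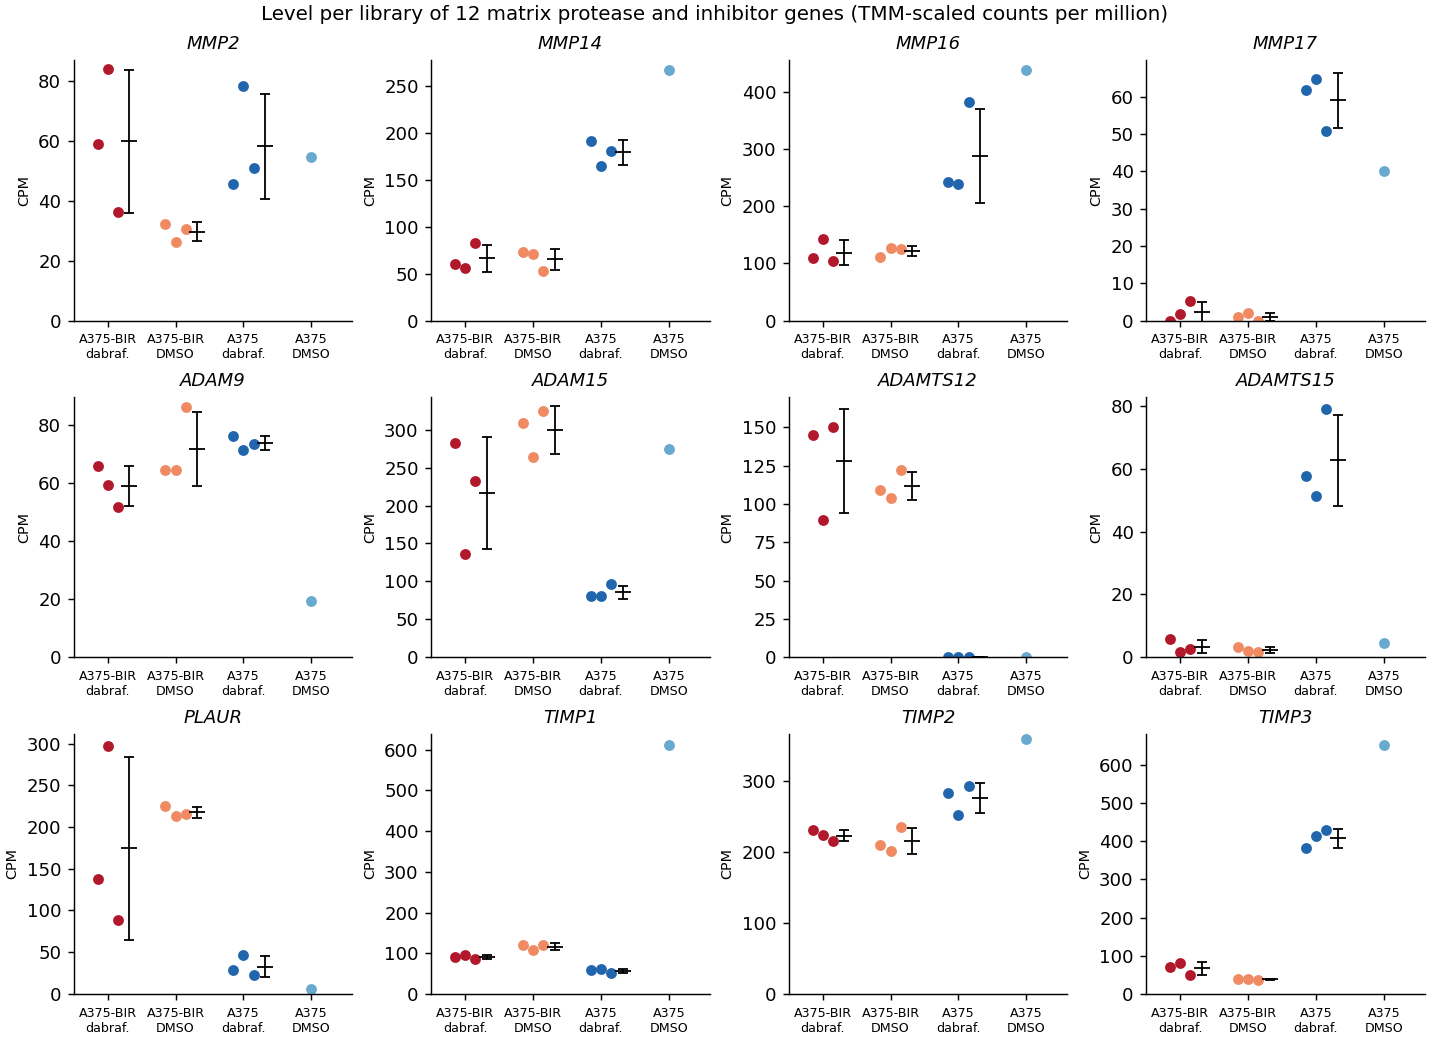
Level of 12 members in each library, in TMM-scaled CPM on linear axes from 0, with points for libraries and black marks for the mean and SD of groups with 3 libraries. ADAMTS12 was at 0 in every A375 library, PLAUR was above 80 CPM in each A375-BIR library, and TIMP1 stood at 611.6 CPM in the A375 DMSO library.

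Of the secreted MMPs, only MMP2 was tested. MMP2 (gelatinase A, which degrades basement membrane collagen) had 59.0, 84.0 and 36.2 CPM in A375-BIR with dabrafenib, against 32.2, 26.2 and 30.5 CPM in A375-BIR with DMSO. Every dabrafenib library lay above every DMSO library, and MMP2 rose by a log2 of 1.05 (SE 0.26, adjusted p 0.0209). In A375 it had 45.4, 78.1 and 50.8 CPM with dabrafenib, against 54.6 CPM in the DMSO library, which lay within the dabrafenib range (log2 0.12, SE 0.33, adjusted p 0.809). The difference between the responses was 0.93 (SE 0.42) and was not called, with an adjusted p of 0.108. In DMSO, A375-BIR was lower than A375 by log2 -0.88 (SE 0.31, adjusted p 0.0184). The fibroblast marker list summed to 20.9 to 24.5 CPM in A375-BIR with dabrafenib, against 10.2 to 13.1 CPM with DMSO. In A375 it summed to 11.3 to 30.9 CPM with dabrafenib and to 18.2 CPM with DMSO. In A375-BIR 8 of 8 markers were detected with dabrafenib and 6 of 8 with DMSO. COL1A2 and THY1, at 0 with DMSO there, had 1 count each with dabrafenib. By mean CPM DCN alone was lower with dabrafenib in A375-BIR. The part of the fibroblast markers in the MMP2 value was not tested. The MMP2 call in A375-BIR did not hold without dabrafenib replicate 2 (0.81, adjusted p 0.0561) or without DMSO replicate 1 (1.12, adjusted p 0.0902), 2 (0.95, adjusted p 0.125) or 3 (1.06, adjusted p 0.0833), nor in DESeq2 (1.05, adjusted p 0.099). The MMP2 call in DMSO was lost without A375-BIR DMSO replicate 2 (-0.79, adjusted p 0.0718), with raw library totals (-0.48, adjusted p 0.214) and in DESeq2 (-0.88, adjusted p 0.109), and the difference between responses was called without A375-BIR dabrafenib replicate 3 (1.11, adjusted p 0.0314).

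The 4 tested membrane-type MMPs were lower in A375-BIR than in A375. Of these, MMP15 and MMP17 reached the filter in A375 libraries only. MMP14, a membrane collagenase that activates the MMP2 proenzyme, had 60.0, 56.0 and 82.8 CPM in A375-BIR with dabrafenib and 72.9, 70.6 and 52.5 CPM with DMSO. In A375 it had 192, 165 and 181 CPM with dabrafenib and 267 CPM with DMSO. No A375-BIR library reached the lowest A375 library. MMP14 was lower in A375-BIR by log2 -1.48 in dabrafenib (SE 0.21, adjusted p 4.11e-07) and by -2.00 in DMSO (SE 0.22, adjusted p 1.52e-09). Dabrafenib left MMP14 in A375-BIR with overlapping groups (adjusted p 0.952), and in A375 it fell by 0.57 on the log2 scale (SE 0.23, adjusted p 0.0421). That fall was lost without A375 dabrafenib replicate 1 (-0.64, adjusted p 0.0659), 2 (-0.50, adjusted p 0.152) or 3 (-0.57, adjusted p 0.0659), with raw library totals (-0.31, adjusted p 0.305), with a mean count of at least 20 (-0.50, adjusted p 0.0704) and in DESeq2 (-0.57, adjusted p 0.162).

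MMP16, another membrane-type member, had 110, 143 and 104 CPM in A375-BIR with dabrafenib, against 243, 239 and 384 CPM in A375 with dabrafenib. It was lower in A375-BIR by log2 -1.21 (SE 0.20, adjusted p 4.22e-06), with no overlap. With DMSO MMP16 had 111, 128 and 125 CPM in A375-BIR, against 440 CPM in A375 (log2 -1.86, SE 0.22, adjusted p 6.49e-09). In A375 it fell with dabrafenib by 0.67 (SE 0.23, adjusted p 0.019), a call lost without A375 dabrafenib replicate 1 (-0.56, adjusted p 0.106) or 2 (-0.54, adjusted p 0.118), with raw library totals (-0.41, adjusted p 0.149) and in DESeq2 (-0.64, adjusted p 0.0989). The difference between the responses of MMP16 was not called (0.65, SE 0.30, adjusted p 0.118) but was called without A375-BIR dabrafenib replicate 3 (0.73, adjusted p 0.0474) or A375 dabrafenib replicate 3 (0.84, adjusted p 0.039).

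MMP15, a membrane-type member of low level, had 13.3, 12.2 and 15.5 CPM in A375-BIR with dabrafenib, against 9.32, 7.06 and 5.08 CPM in A375-BIR with DMSO. The groups did not overlap, but the change was not called (log2 0.82, SE 0.43, adjusted p 0.388). In A375 MMP15 had 33.0, 37.9 and 11.3 CPM with dabrafenib, against 62.8 CPM with DMSO, and fell by 1.01 (SE 0.34, adjusted p 0.0177). The responses differed by 1.83 (SE 0.55, adjusted p 0.0154). A375-BIR was lower than A375 by log2 -3.03 in DMSO (SE 0.36, adjusted p 8.09e-09) and by -1.20 in dabrafenib (SE 0.39, adjusted p 0.0127), where A375 replicate 3, with 2 counts, lay below every A375-BIR library. Without A375 dabrafenib replicate 1 or 2 the difference in dabrafenib was not called for MMP15 (-1.13, adjusted p 0.0667, and -0.98, adjusted p 0.114). Without A375 dabrafenib replicate 3 its fall in A375 was not called (-0.82, adjusted p 0.0571), nor was it with raw library totals (-0.74, adjusted p 0.0917). In DESeq2 MMP15 was not called in the A375 response (-1.06, adjusted p 0.164), in the difference between the responses (1.94, adjusted p 0.0861) or between the lines in dabrafenib (-1.13, adjusted p 0.0768).

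MMP17, which is anchored to the membrane by a lipid, had 3 counts over the 3 A375-BIR dabrafenib libraries, against 61.9, 64.7 and 50.8 CPM in A375 with dabrafenib. With DMSO MMP17 had 3 counts over the 3 A375-BIR libraries, against 40.2 CPM in A375. The ratio of A375-BIR to A375 was 0.0244 in dabrafenib (95% counting interval 0.00491 to 0.0743, adjusted p 5.74e-10) and 0.0270 in DMSO (interval 0.00543 to 0.0826, adjusted p 3.73e-09). In A375 the dabrafenib libraries lay above the DMSO library, but the change of MMP17 was not called (log2 0.60, SE 0.35, adjusted p 0.181).

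The ADAM members differed from each other in how they responded. ADAM15, a membrane protease that also binds integrins, had 282, 136 and 233 CPM in A375-BIR with dabrafenib, against 308, 264 and 325 CPM with DMSO, with overlapping groups (log2 -0.44, SE 0.18, adjusted p 0.238). In A375 ADAM15 had 80.4, 80.3 and 95.9 CPM with dabrafenib, against 274 CPM with DMSO. It fell in A375 by 1.71 on the log2 scale (SE 0.27, adjusted p 6.01e-06). The responses differed by 1.27 (SE 0.33, adjusted p 0.00555), and in dabrafenib A375-BIR was higher by 1.40 (SE 0.23, adjusted p 7.41e-06), with no overlap. Without A375-BIR dabrafenib replicate 1 the change of ADAM15 in A375-BIR was called (-0.72, adjusted p 0.0393).

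ADAM9, a sheddase, had 65.7, 59.5 and 51.8 CPM in A375-BIR with dabrafenib, against 64.4, 64.5 and 86.3 CPM with DMSO, with overlapping groups (log2 -0.22, SE 0.21, adjusted p 0.704). In A375 ADAM9 had 76.3, 71.4 and 73.3 CPM with dabrafenib, against 19.5 CPM with DMSO, and rose by log2 1.91 (SE 0.34, adjusted p 2.73e-05). The responses differed by -2.13 (SE 0.40, adjusted p 0.000187). In DMSO A375-BIR was higher by 1.84 (SE 0.31, adjusted p 7.93e-06), while in dabrafenib the lines differed by -0.29 (SE 0.24, adjusted p 0.346), which was not called. For ADAM9 the A375 DMSO library alone stands apart from the other 9 libraries.

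ADAM10, the sheddase of Notch receptors and cadherins, had 51.4, 82.2 and 67.3 CPM in A375-BIR with dabrafenib, against 132, 87.0 and 130 CPM in A375 with dabrafenib. It was lower in A375-BIR by log2 -0.81 in dabrafenib (SE 0.23, adjusted p 0.00476) and by -0.90 in DMSO (SE 0.26, adjusted p 0.00359). The call for ADAM10 in dabrafenib was lost without A375-BIR dabrafenib replicate 1 (-0.59, adjusted p 0.0559) or A375 dabrafenib replicate 1 (-0.65, adjusted p 0.0758), and that in DMSO with raw library totals (-0.49, adjusted p 0.11). ADAM17, the sheddase of TNF and of several EGFR ligands, had 146, 125 and 118 CPM in A375 with dabrafenib, against 82.9 CPM with DMSO (log2 0.67, SE 0.27, adjusted p 0.0462). Leaving out A375 dabrafenib replicate 1, 2 or 3 ended that call for ADAM17, with values of 0.57 (adjusted p 0.173), 0.72 (adjusted p 0.0733) and 0.72 (adjusted p 0.05), as did no filter (0.59, adjusted p 0.117) and DESeq2 (0.67, adjusted p 0.138). In A375-BIR ADAM17 overlapped between dabrafenib and DMSO (adjusted p 0.967), and the difference between the responses was not called (-0.71, SE 0.33, adjusted p 0.119) but was without A375-BIR dabrafenib replicate 2 (-0.98, adjusted p 0.00761). Exons of ADAM17 overlap those of IAH1 on the other strand by 1323 bases, and how such reads were counted is not given in the sources used here.

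ADAM23, which lacks protease activity and binds integrins, had 18.1, 19.2 and 18.1 CPM in A375-BIR with dabrafenib, against 47.4, 46.9 and 28.2 CPM in A375 with dabrafenib (log2 -1.24, SE 0.33, adjusted p 0.00253). In A375 it was higher with dabrafenib than the 21.3 CPM of the DMSO library (log2 1.03, SE 0.37, adjusted p 0.0244). That call for ADAM23 was lost without A375 dabrafenib replicate 1 (0.93, adjusted p 0.101) or 2 (0.96, adjusted p 0.0892), with no filter (0.94, adjusted p 0.0771) and in DESeq2 (1.01, adjusted p 0.165). ADAM12 averaged 14.8 ± 2.96 CPM in A375-BIR with dabrafenib, 13.5 ± 1.40 in A375-BIR with DMSO and 13.2 ± 7.49 in A375 with dabrafenib (SD, n = 3 each), and 19.5 CPM in A375 with DMSO. ADAM19 averaged 5.64 ± 1.19, 4.84 ± 2.75 and 15.1 ± 6.13 CPM in the same 3 groups, and 5.65 CPM in A375 with DMSO. Neither ADAM12 nor ADAM19, both known in mouse from muscle or heart development, was called in any comparison.

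**Figure D2:**
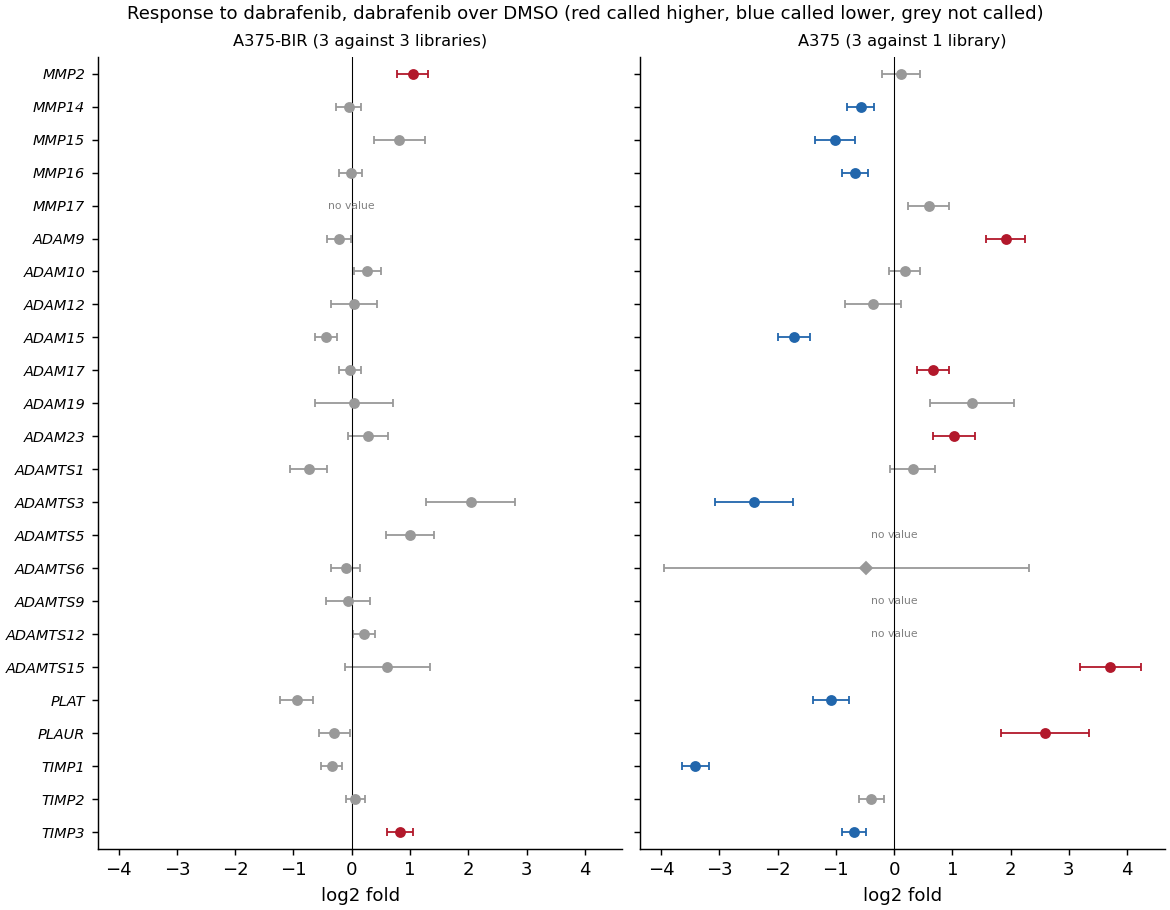
Log2 fold of dabrafenib over DMSO for the 24 tested members in A375-BIR and in A375. Circles are fitted values with 1 SE, the diamond is a ratio of summed counts with its 95% counting interval, and "no value" marks members with 3 or fewer counts in both groups. MMP2 and TIMP3 were the members called in A375-BIR, and TIMP1 had the lowest value in A375, at -3.41.

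Among the ADAMTS genes, ADAMTS12, ADAMTS6, ADAMTS9 and ADAMTS5 were higher in A375-BIR than in A375 in both dabrafenib and DMSO. Each of them reached the filter in A375-BIR libraries only, so nothing is read from how many ADAMTS genes were higher. ADAMTS12, which cleaves cartilage oligomeric matrix protein, had 145, 89.2 and 150 CPM in A375-BIR with dabrafenib and 109, 104 and 122 CPM with DMSO. No A375 library held a count of ADAMTS12. It was at least 48.1-fold higher in A375-BIR in dabrafenib (adjusted p 6.25e-13) and at least 58.4-fold higher in DMSO (adjusted p 1.94e-12), against 3 counts over the A375 group. Dabrafenib against DMSO in A375-BIR gave overlapping groups for ADAMTS12 (log2 0.21, SE 0.19, adjusted p 0.697).

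ADAMTS6, an enzyme known to cleave fibrillin and other matrix proteins, had 48.5, 128 and 98.3 CPM in A375-BIR with dabrafenib, with 162 counts in sum, against 2 counts over the 3 A375 dabrafenib libraries. The ratio was 44.8 (95% counting interval 12.2 to 373, adjusted p 1.73e-08). With DMSO ADAMTS6 had 100.0, 79.6 and 99.9 CPM in A375-BIR, against 2.51 CPM in A375 (log2 5.12, SE 0.57, adjusted p 9.32e-09). ADAMTS9, which cleaves versican and aggrecan, had 13.3, 17.5 and 31.1 CPM in A375-BIR with dabrafenib and 16.1, 22.2 and 20.3 CPM with DMSO. It had no count in A375, and was at least 6.63-fold higher in A375-BIR in dabrafenib (adjusted p 5.92e-05) and at least 10.2-fold higher in DMSO (adjusted p 6.55e-06). ADAMTS5, the main aggrecan-cleaving enzyme of cartilage in mouse, had 24.8, 14.0 and 28.5 CPM in A375-BIR with dabrafenib, against 13.6, 11.1 and 6.77 CPM with DMSO. These groups did not overlap, and the change was not called (log2 1.00, SE 0.41, adjusted p 0.22). Against A375, the ratio of ADAMTS5 was 12.4 in dabrafenib (interval 3.25 to 106, adjusted p 0.00031) and 17.9 in DMSO (interval 2.98 to 728, adjusted p 0.00111).

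ADAMTS15, another proteoglycan-cleaving member, was high in a single group, A375 with dabrafenib, which alone carried it past the filter. In A375-BIR it had 5.71, 1.75 and 2.59 CPM with dabrafenib and 3.39, 2.02 and 1.69 CPM with DMSO, with overlapping groups (adjusted p 0.779). In A375 ADAMTS15 had 57.7, 51.3 and 79.0 CPM with dabrafenib, against 4.40 CPM with DMSO, and rose by log2 3.71 (SE 0.52, adjusted p 7.71e-07). In dabrafenib A375-BIR was lower than A375 by log2 -3.86 (SE 0.45, adjusted p 8.62e-09). The responses of ADAMTS15 differed by -3.10 (SE 0.99, adjusted p 0.0217), a call lost without A375-BIR DMSO replicate 1 (-2.73, adjusted p 0.14).

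ADAMTS3, a procollagen N-propeptidase, had 13 counts over the A375-BIR dabrafenib libraries and 4 over the A375-BIR DMSO libraries, with groups that did not overlap (log2 2.04, SE 0.77, adjusted p 0.169, not called). In A375 ADAMTS3 had 6.19, 2.23 and 5.64 CPM with dabrafenib, against 24.5 CPM with DMSO, and fell by 2.40 on the log2 scale (SE 0.67, adjusted p 0.00436). It was tested because of that DMSO library, where it is highest, and DESeq2 did not call the fall (-2.43, adjusted p 0.0754). The responses of ADAMTS3 differed by 4.44 (SE 1.03, adjusted p 0.00186), and in DMSO A375-BIR was lower than A375 by log2 -3.93 (SE 0.64, adjusted p 4.06e-06). ADAMTS1, a versican- and aggrecan-cleaving member, had 11.4, 31.5 and 23.3 CPM in A375-BIR with dabrafenib, against 33.1, 31.2 and 37.2 CPM with DMSO, and was not called (log2 -0.74, SE 0.32, adjusted p 0.249). Without dabrafenib replicate 2 it was called in A375-BIR (-1.17, adjusted p 0.0303), against A375 in dabrafenib (-1.27, adjusted p 0.00684) and in the difference between the responses (-1.49, adjusted p 0.0171). Without dabrafenib replicate 3 ADAMTS1 was called against A375 in dabrafenib (-0.92, adjusted p 0.0481).

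**Figure D3:**
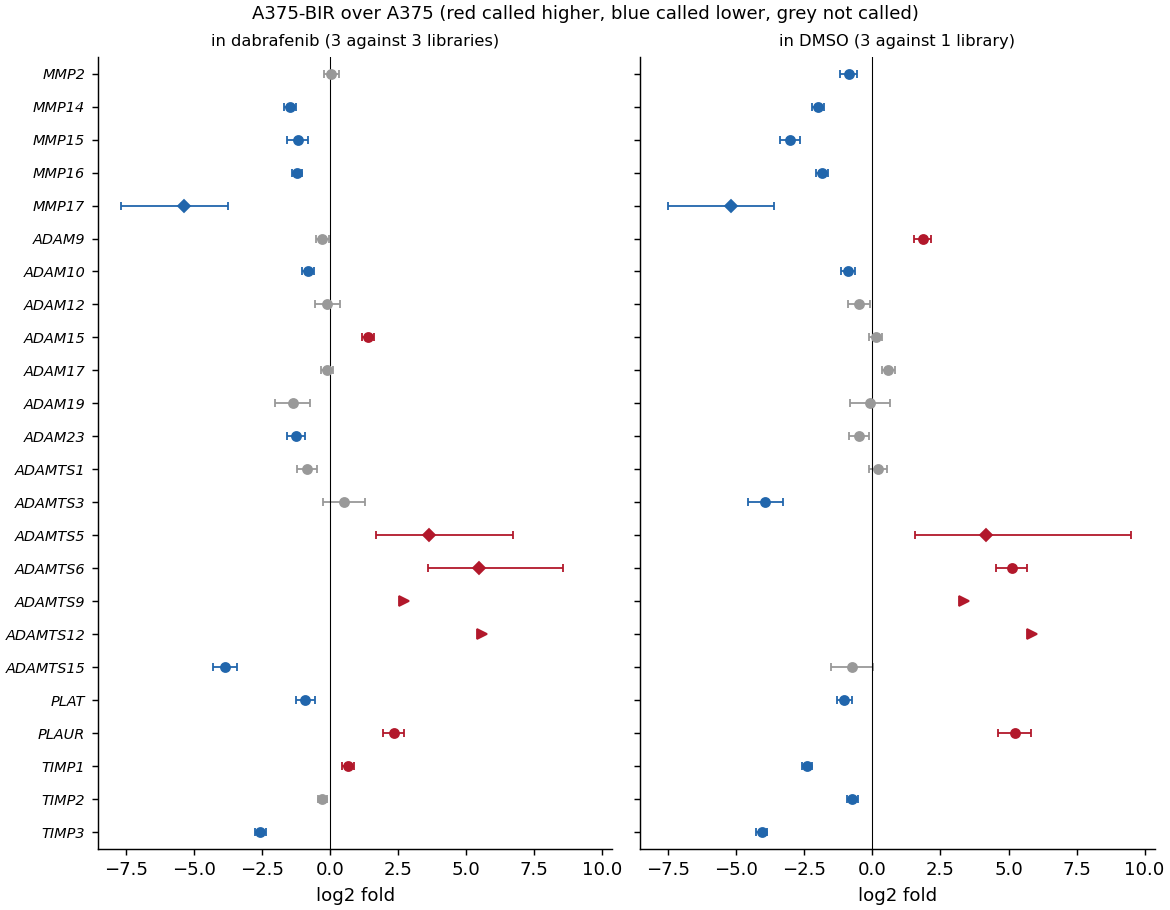
Log2 fold of A375-BIR over A375 for the 24 tested members, in dabrafenib and in DMSO. Circles are fitted values with 1 SE, diamonds are ratios of summed counts with their 95% counting interval, and triangles are lower limits of a fold against a group with no counts. MMP14, MMP15, MMP16 and MMP17 lie left of 0 in both panels, and ADAMTS5, ADAMTS6, ADAMTS9, ADAMTS12 and PLAUR lie right of it.

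In the plasminogen activation system, the receptor was the member with counts that differed most between the lines. PLAUR, at chromosome 19, 43646095 to 43670547 (GENCODE 29, GRCh38), had 138, 297 and 88.0 CPM in A375-BIR with dabrafenib, against 28.9, 46.9 and 22.6 CPM in A375 with dabrafenib. Each A375-BIR library lay above each A375 library, by a log2 of 2.33 (SE 0.39, adjusted p 7.02e-05). With DMSO PLAUR had 225, 213 and 215 CPM in A375-BIR, against 5.65 CPM in A375 (log2 5.23, SE 0.60, adjusted p 5.84e-07). In A375 with dabrafenib PLAUR rose by log2 2.59 (SE 0.75, adjusted p 0.0106), on 14, 21 and 4 counts, against 9 counts in the DMSO library. In A375-BIR the dabrafenib libraries spread on either side of the tight DMSO libraries, and the change was not called (-0.30, SE 0.27, adjusted p 0.68). The responses differed by -2.89 (SE 0.80, adjusted p 0.0141). PLAUR in A375-BIR rests on dabrafenib replicate 2, without which it was called lower (-0.86, adjusted p 0.000915). Without A375 dabrafenib replicate 2 neither its rise in A375 (2.23, adjusted p 0.0539) nor the difference between responses (-2.54, adjusted p 0.0583) was called.

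PLAT, the tissue-type activator, had 19.04, 28.0 and 33.6 CPM in A375-BIR with dabrafenib, against 34.7, 57.5 and 55.9 CPM with DMSO. The groups did not overlap, and the change missed the threshold (log2 -0.95, SE 0.29, adjusted p 0.0704). It was called without dabrafenib replicate 2 (-1.04, adjusted p 0.031) or 3 (-1.09, adjusted p 0.0358) and with no filter (-0.97, adjusted p 0.039). In A375 PLAT had 35.1, 46.9 and 73.3 CPM with dabrafenib, against 99.2 CPM with DMSO, and fell by 1.08 (SE 0.32, adjusted p 0.00653), which was not called without replicate 1 (-0.83, adjusted p 0.0807) or in DESeq2 (-1.04, adjusted p 0.0821). The responses of PLAT were not called different (0.13, SE 0.45, adjusted p 0.866). A375-BIR was lower than A375 by log2 -0.90 in dabrafenib (SE 0.34, adjusted p 0.0293) and by -1.04 in DMSO (SE 0.27, adjusted p 0.00183). The difference of PLAT in dabrafenib was lost without A375-BIR replicate 1 (-0.62, adjusted p 0.194) and without A375 replicate 2 (-0.91, adjusted p 0.0811) or 3 (-0.71, adjusted p 0.12), and also with raw library totals (-0.78, adjusted p 0.0547) and in DESeq2 (-0.90, adjusted p 0.0721). PLAU, the urokinase itself, was listed at 0 in all 10 libraries. Its exons overlap those of C10orf55 on the other strand by 916 bases, and C10orf55 was also listed at 0, and the part of this overlap was not tested.

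The 3 tested TIMPs were lower in A375-BIR than in A375 with DMSO, and TIMP1 and TIMP3 responded differently in the lines. TIMP1, a broad inhibitor of secreted MMPs, had 91.4, 96.2 and 85.4 CPM in A375-BIR with dabrafenib, against 121, 107 and 120 CPM with DMSO. These groups did not overlap, yet the change was not called (log2 -0.34, SE 0.18, adjusted p 0.385). In A375 TIMP1 had 57.7, 60.3 and 50.8 CPM with dabrafenib, against 611.6 CPM in the DMSO library. It fell there by 3.41 on the log2 scale (SE 0.23, adjusted p 2.71e-14). The responses differed by 3.07 (SE 0.30, adjusted p 1.97e-09). A375-BIR was lower than A375 in DMSO by log2 -2.40 (SE 0.19, adjusted p 6.27e-13) and higher in dabrafenib by 0.67 (SE 0.23, adjusted p 0.0161), and the call of TIMP1 in dabrafenib was lost without A375 replicate 1 (0.67, adjusted p 0.0596). TIMP1 lies within SYN1, on the other strand, and SYN1 had 0 counts.

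TIMP3, an inhibitor bound to the matrix that also blocks ADAM17 and several ADAMTS enzymes, had 71.4, 80.5 and 49.2 CPM in A375-BIR with dabrafenib, against 39.8, 38.3 and 37.2 CPM with DMSO. Every dabrafenib library lay above every DMSO library, and TIMP3 rose by log2 0.83 (SE 0.22, adjusted p 0.029). In A375 it had 382, 413 and 429 CPM with dabrafenib, against 652 CPM with DMSO, and fell by 0.68 (SE 0.21, adjusted p 0.00813). The responses differed by 1.51 (SE 0.30, adjusted p 0.000387). A375-BIR was lower than A375 by log2 -2.56 in dabrafenib (SE 0.19, adjusted p 8e-14) and by -4.07 in DMSO (SE 0.22, adjusted p 8.02e-18). The rise of TIMP3 in A375-BIR was not called without dabrafenib replicate 1 (0.79, adjusted p 0.11), without DMSO replicate 1 (0.85, adjusted p 0.144), 2 (0.82, adjusted p 0.115) or 3 (0.81, adjusted p 0.126), or in DESeq2 (0.84, adjusted p 0.0609). Its fall in A375 was not called with raw library totals (-0.43, adjusted p 0.111).

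TIMP2, which blocks MMP14 and also helps it to activate the MMP2 proenzyme, varied least among the TIMPs. It averaged 223 ± 7.83 CPM in A375-BIR with dabrafenib, 215 ± 18.1 in A375-BIR with DMSO and 276 ± 21.3 in A375 with dabrafenib (SD, n = 3 each), and had 359 CPM in A375 with DMSO. TIMP2 was called in DMSO only, lower in A375-BIR by log2 -0.74 (SE 0.20, adjusted p 0.00233), and not with raw library totals there (-0.34, adjusted p 0.165). TIMP4 had 1 count in all libraries together.

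**Figure D4:**
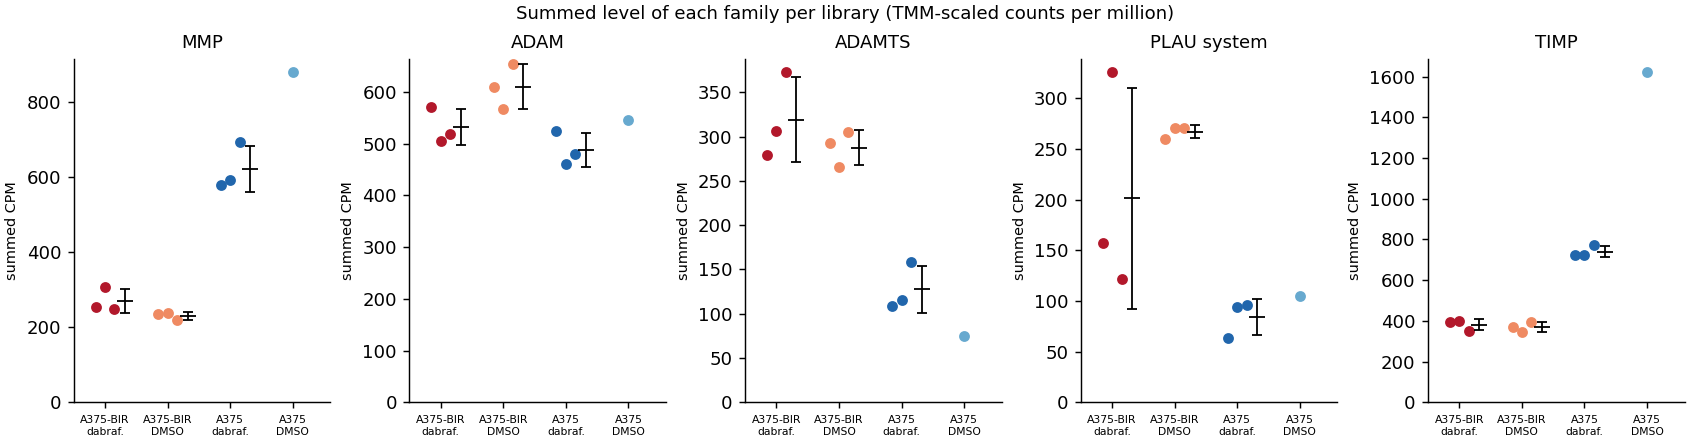
Summed level of the members of each family per library, in TMM-scaled CPM on linear axes from 0, with points for libraries and black marks for the mean and SD of groups with 3 libraries. The TIMP sum was 349 to 401 CPM in A375-BIR with dabrafenib and 1622 CPM in the A375 DMSO library.

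Summed over each family, the MMP genes stood at 270.5 ± 32.6 CPM in A375-BIR with dabrafenib, 231 ± 10.8 in A375-BIR with DMSO and 622 ± 62.4 in A375 with dabrafenib, and at 882 CPM in A375 with DMSO. The TIMP sum followed the same order of lines, with 381 ± 27.7, 369.9 ± 23.5 and 740.0 ± 28.5 CPM in those 3 groups and 1622 CPM in A375 with DMSO. Not each TIMP gene did, since TIMP1 was called higher in A375-BIR in dabrafenib and TIMP2 was not called there. The ADAMTS sum ran the other way, at 319 ± 48.3, 288 ± 19.7 and 128 ± 26.4 CPM, with 75.3 CPM in A375 with DMSO. Within it, ADAMTS15 was called lower in A375-BIR in dabrafenib and ADAMTS3 lower in DMSO. The plasminogen activation genes summed to 201 ± 109, 267 ± 6.48 and 84.5 ± 17.9 CPM, with 105 CPM in A375 with DMSO. The ADAM sums lay closer together, at 532 ± 34.9, 609.7 ± 43.5 and 488 ± 32.8 CPM, with 545 CPM in A375 with DMSO (SD, n = 3 for each group but A375 with DMSO). These sums are descriptions and were not tested.

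The 44 members that were not tested include 28 with 1 to 103 counts over all libraries, with a median of 7.5. MMP1, the interstitial collagenase, had 1 count in the 3 A375-BIR DMSO libraries and 1 in the 3 A375 dabrafenib libraries, against 18 in the A375 DMSO library. For MMP1 the ratio of dabrafenib to DMSO in A375 was 0.0797 (95% counting interval 0.00191 to 0.505), and that of A375-BIR to A375 in DMSO was 0.0320 (interval 0.000769 to 0.203). MMP9, gelatinase B, had no count in A375 with dabrafenib, against 7 in the A375 DMSO library, and the ratio of A375-BIR to A375 in DMSO was 0.165 (interval 0.0167 to 0.865). MMP3 had 4 counts in all, none of them in A375-BIR. MMP13, ADAM8, ADAM32, ADAMTS9 and ADAMTS12 had more than 3 counts in A375-BIR and none in A375. Of these, ADAM8 had 12 counts with dabrafenib and 16 with DMSO. ADAMTS4, an aggrecan-cleaving member, had 6 counts in all. With no filter on low counts 52 members were tested. ADAM8 was then called higher in A375-BIR than in A375 in dabrafenib (adjusted p 0.0188) and in DMSO (adjusted p 0.00452). In dabrafenib ADAMTS10, with 11 counts in A375-BIR against 0 in A375, and ADAMTS16, with 18 against 1, were also called higher (adjusted p 0.0247 and 0.0196). MMP1 was called lower in the A375 response (adjusted p 0.0126) and in A375-BIR in DMSO (adjusted p 5.46e-05), and MMP19, with 5 counts with dabrafenib against 0 with DMSO, higher in the A375 response (adjusted p 0.0491).

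Regulators of these proteases were taken from a list of 42 genes, of which 27 were tested. In the A375-BIR response 2 were called higher and 1 lower (11.1% of the 27, against 2.46% of all tested genes). In the A375 response 3 were called higher and 7 lower (37.0%, against 38.6% of all genes, a share near the background). Between the lines 8 were called higher and 10 lower in dabrafenib (66.7%, against 42.7%), and 7 higher and 12 lower in DMSO (70.4%, against 51.8%). The list was chosen with earlier results of these data known. Regulators with no count in A375-BIR, such as PCSK6, had to differ to be tested, so nothing is read from these shares. SERPINB2, an inhibitor of PLAU, had 35.2, 78.7 and 44.0 CPM in A375-BIR with dabrafenib and was higher there than in A375 by a ratio of 18.2 (interval 6.06 to 90.0, adjusted p 8.27e-07). SERPINE2, which also inhibits PLAU and PLAT, went the other way, with 444, 597 and 481 CPM in A375-BIR with dabrafenib, against 1291, 1281 and 1264 CPM in A375 with dabrafenib (log2 -1.34, SE 0.17, adjusted p 7.02e-08). TFPI2, an inhibitor of plasmin, had 34.3, 57.7 and 44.0 CPM in A375-BIR with dabrafenib, against 111, 87.7 and 107 CPM with DMSO. It fell by 1.21 (SE 0.23, adjusted p 0.00103), with no overlap, and no left-out library ended that call. ANXA2, which binds plasminogen and PLAT at the cell surface, rose in A375-BIR by log2 0.64 (SE 0.18, adjusted p 0.0392), and SERPINE2 by 0.64 (SE 0.17, adjusted p 0.0349). Both calls were lost without A375-BIR DMSO replicate 1 (ANXA2 0.58, adjusted p 0.28, and SERPINE2 0.68, adjusted p 0.157), 2 (0.70, adjusted p 0.103, and 0.59, adjusted p 0.182) or 3 (0.65, adjusted p 0.154, and 0.65, adjusted p 0.151). With only the 6 A375-BIR libraries neither was called (0.66, adjusted p 0.0675, and 0.66, adjusted p 0.0617). ANXA2 was not called without dabrafenib replicate 3 (0.52, adjusted p 0.0888) or with no filter (0.62, adjusted p 0.0598), nor SERPINE2 without dabrafenib replicate 2 (0.50, adjusted p 0.0598).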

How the data were processed

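RNA was measured by 3′ tag sequencing (QuantSeq FWD), per the labels' protocols, so that reads fall near the polyadenylated end and counts do not scale with gene length. The authors deposited raw read counts per gene for each library, with no normalization, and the submitters' processing notes name the build hg38. Of the aligner, the counter and the use of strand, nothing is given in the sources used here. Lines for reads given to no gene were left out, which left 20.4% to 31.1% of the counts in a human library. The 10 human libraries were scaled by TMM and fitted in edgeR 4.0.16 under R 4.3.3 (filterByExpr with minimum count 10, glmQLFit with robust estimation, 1 coefficient per group, 6 residual degrees of freedom). The A375 DMSO library was given the spread pooled over the other groups. Folds against a group with 0 counts are lower limits, set by 3 counts over that group, and folds against 1 to 3 counts are ratios of the sums with exact 95% counting intervals. The script was tested on simulated data. Members are named where called at 10 CPM or more, beside a fixed set of well-known members. Other tested members are named too, chosen after their values were seen. The members and lists were chosen with earlier results of these data known. The alternatives tried were other scalings, filters, DESeq2 1.42.0, fewer libraries, thinning, a replicate block and leaving out each replicate. Thinning is a binomial draw that replaced a first method, edgeR's thinCounts, after that method's output was seen to be implausible. The regulators named were chosen from the called ones after their values were seen, and the rest are given by counts.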

Additional observations from a re-analysis of the deposited data

Results flagged for a closer look

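The response to dabrafenib differed between A375-BIR and A375 for 8 of the 24 tested members, by a test of the difference itself (edgeR quasi-likelihood test, Benjamini-Hochberg adjusted over all genes), where 22.6% of all tested genes were called. ADAMTS3 reached the filter in the A375 DMSO library alone, ADAMTS15 in A375 with dabrafenib alone and MMP15 in A375 libraries only. Nothing is therefore read from the number called. On the log2 scale, A375-BIR minus A375, the difference was 1.83 for MMP15, -2.13 for ADAM9, 1.27 for ADAM15, 4.44 for ADAMTS3, -3.10 for ADAMTS15, -2.89 for PLAUR, 3.07 for TIMP1 and 1.51 for TIMP3. Each of these rests on the lone A375 DMSO library, whose stamp cannot be told apart from its group.

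A375 DMSO replicates 2 and 3 hold 224221 and 652439 counts on mouse gene identifiers, although their labels state human. They entered no comparison, and the identifiers could not be named from the reference tables used here.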

How the results depend on the processing

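Of 56 called values of members, tried under 745 alternatives, 665 stayed called with the same sign, 80 lost the call and 0 changed sign, and 32 were called under every alternative that tested them. Of 64 values not called, tried under 871, 20 became called with the same sign and 55 were counted as changing sign without being called. These 55 include 1 value each of ADAMTS9 and ADAMTS12 in the A375 response, where the value in the main fit was 0.

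In the A375-BIR response 2 members were called. It was 0 with DESeq2 (4 members at an unadjusted p under 0.05), 0 with only its 6 libraries (5 unadjusted) and 0 when thinned to the smallest library (1 unadjusted), and 0 to 4 when each replicate was left out. Each A375-BIR DMSO replicate left out gave 0 (6, 7 and 4 unadjusted), and leaving out dabrafenib replicate 2 gave 4. A mean count of at least 20 gave 10 between the lines in dabrafenib (16 before), 8 in the A375 response (13 before) and 5 in the difference between responses (8 before). That filter tested 15 members and 6536 genes in all, against 24 and 10236 in the main fit. Thinning ended calls of MMP2, MMP14, MMP16, MMP17, ADAM10, ADAM17, ADAM23, ADAMTS15, PLAT, PLAUR, TIMP2 and TIMP3. It gave 4 in the A375 response, 9 between the lines in DMSO (17 before) and 4 in the difference between responses. Thinning left 17 members and 6737 genes in all to be tested. DESeq2 gave 6 in the A375 response, which ranged from 8 to 10 over replicates left out. Regulators called in the A375-BIR response were 1 with only its 6 libraries and 1 when thinned (3 before), and 1 to 4 over replicates left out. When thinned, 4 were called in the A375 response (10 before), 12 in DMSO (19 before) and 1 in the difference between responses (6 before). A mean count of at least 20 gave 12 in DMSO. Of the 27 regulators tested in the main fit, 18 were tested when thinned and 15 with that mean count.

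With raw library totals the median log2 of all genes stood at 0.16 between the lines in dabrafenib (0.04 with TMM), 0.26 in the A375 response (0.00), 0.41 between the lines in DMSO (0.0052) and -0.24 in the difference between responses (0.04). Members called were then 5 higher and 4 lower in the A375 response, 7 and 8 between the lines in DMSO, and 5 and 5 in the difference between responses. A filter that needs 2 libraries above the minimum, chosen after seeing the data, kept every count of members within 1.5 times.

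Sign changes, called on neither side, were as follows, with cause not tested. In the A375-BIR response a mean count of at least 20 gave 0.0064 for MMP16, and thinning gave -0.21 for ADAM23 and -0.74 for ADAMTS15. Over replicates left out the range was -0.19 to 0.0394 for MMP14, -0.16 to 0.0551 for MMP16, -0.67 to 1.40 for MMP17, -0.0726 to 0.19 for ADAM12, -0.29 to 0.10 for ADAM17, -0.22 to 0.33 for ADAM19, -0.53 to 0.31 for ADAMTS6, -0.36 to 0.26 for ADAMTS9 and -0.26 to 0.99 for ADAMTS15. Between the lines in dabrafenib raw totals gave 0.0113 for ADAM12, a mean count of at least 20 gave -0.0026 and thinning -0.33 for MMP2, and over replicates left out the range was -0.19 to 0.37 for MMP2, -0.29 to 0.34 for ADAM12 and -0.38 to 0.0165 for ADAM17. In the A375 response thinning gave -0.11 for MMP2, and the range was -0.21 to 0.34 for MMP2 and -1.12 to 0.34 for ADAMTS6. There the replicate block gave -0.33 for ADAMTS9 and 0.12 for ADAMTS12. Neither had a count in A375, and their value of 0 in the main fit had no sign to change. Between the lines in DMSO raw totals gave 0.32 for ADAM19, thinning 0.0547 for ADAM23 and the replicate block -0.0772 for ADAMTS1, and the range was -0.36 to 0.18 for ADAM19. In the difference between responses raw totals gave -0.20 for ADAM10 and -0.15 for PLAT, DESeq2 -2.03 for ADAMTS12, thinning -0.26 for ADAM10 and the replicate block 0.29 for ADAMTS9. There the range was -1.27 to 0.79 for MMP17, -0.12 to 0.31 for ADAM10, -1.10 to 0.34 for ADAMTS5, -0.43 to 1.01 for ADAMTS6, -0.36 to 0.26 for ADAMTS9 and -0.11 to 0.43 for PLAT. Fitted values of members at or near 0 in a group depend on the prior count.

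With the replicate number as a block, 2, 16, 9, 17 and 8 members were called, in the order A375-BIR response, lines in dabrafenib, A375 response, lines in DMSO and difference between responses. The numbers were not treated as pairing the samples, since not every same-numbered pair correlated above 0.1 in deviations from the group means: A375-BIR with dabrafenib gave 0.13, -0.19 and -0.33 with A375-BIR DMSO, and 0.11, 0.0672 and 0.27 with A375 dabrafenib. In the A375 response the block gave -0.52 for MMP14 (adjusted p 0.126), -0.92 for MMP15 (0.0793), 0.62 for ADAM17 (0.103) and 1.03 for ADAM23 (0.0564), which were then not called. The A375 DMSO library could not be left out of the comparisons that use it, having no other in its group.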

Other observations

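Several regulators of ADAM proteases differed between the lines, and they come from the list of 42 regulators. TSPAN5, a tetraspanin that guides ADAM10 to the cell surface, had 95.2, 64.7 and 140 CPM in A375-BIR with dabrafenib, against 3 counts in all in A375 with dabrafenib, a ratio of 35.2 (95% counting interval 11.9 to 172, edgeR adjusted p 1e-10). TSPAN33, of the same tetraspanin group, went the other way, with 2.86, 3.50 and 2.59 CPM in A375-BIR with dabrafenib, against 22.7, 31.2 and 28.2 CPM in A375 with dabrafenib (log2 -3.11, SE 0.59, edgeR adjusted p 5.2e-05). RHBDF1, an inactive rhomboid that supports the maturation of ADAM17, had 31.4, 28.0 and 28.5 CPM in A375-BIR with dabrafenib, against 109, 167 and 124 CPM in A375 with dabrafenib (log2 -2.18, SE 0.25, edgeR adjusted p 3.84e-09). These 3 genes were chosen after their values were seen, in a comparison where 42.7% of all tested genes were called. From the same list, RHBDF2 (26.1 against 42.2 CPM on average) and TSPAN17 (13.9 against 6.62 CPM) were not called there. TSPAN14 was called higher in A375-BIR in dabrafenib but lower in DMSO. Its call in dabrafenib was lost under 6 of 16 alternatives.

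PCSK6, a proprotein convertase, had no count in A375-BIR, against 74.2, 60.3 and 113 CPM in A375 with dabrafenib and 53.4 CPM in A375 with DMSO. It was at least 50.05-fold lower in A375-BIR in dabrafenib (edgeR adjusted p 1.44e-11) and at least 49.2-fold lower in DMSO (edgeR adjusted p 4.71e-11). FURIN, the convertase that activates MMP14 and many ADAM proenzymes, averaged 42.6 ± 16.1 CPM in A375-BIR with dabrafenib and 52.6 ± 16.7 CPM in A375 with dabrafenib (SD, n = 3 each), and was not called there (log2 -0.30, SE 0.31, edgeR adjusted p 0.454). With DMSO FURIN averaged 56.4 ± 20.8 CPM in A375-BIR (SD, n = 3), against 124 CPM in A375, and was lower by log2 -1.18 (SE 0.28, edgeR adjusted p 0.000632). In A375 it fell with dabrafenib by 1.12 on the log2 scale (SE 0.32, edgeR adjusted p 0.00495). HTRA1, a secreted serine protease, had 12.4, 12.2 and 5.18 CPM in A375-BIR with dabrafenib, against 55.7, 51.3 and 39.5 CPM in A375 with dabrafenib (log2 -2.21, SE 0.36, edgeR adjusted p 4.03e-06).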
